A study of Homo sapiens with 4 samples.

Results

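The genes described here are 4 cyclin-dependent kinase (CDK) inhibitors and 6 targets of the tumour suppressor p53, measured in HCCLM3 cells, a line from a human liver carcinoma. The p53 targets have differing roles, including cell-cycle arrest, DNA repair, handling of oxidants and feedback on p53. The members were taken by gene symbol: CDKN1A, CDKN1B, CDKN2B and CDKN2C as the inhibitors, and MDM2, RRM2B, GADD45A, SESN1, ZMAT3 and TP53I3 as the p53 targets. In all, 23 of the 41091 probe sets that name a single gene belonged to 9 of these 10 genes, out of 19775 genes named on the array. No probe set was matched to CDKN2C, which was not analysed here. The rule uses symbols only, with no threshold on a measured value, though the members were chosen with earlier results of these data known.

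The cells had been sorted magnetically by EpCAM, an epithelial adhesion protein, and each of the 4 groups was a single Affymetrix U133 Plus 2.0 array of 1 sample. EpCAM-negative cells were transfected with 100 nM miR-429 mimics, a synthetic duplex that supplies the microRNA, or with 100 nM miR-NC mimics, the negative control (NC). EpCAM-positive cells were given 40 µM Antagomir-429, a cholesterol-conjugated antisense RNA against miR-429, or 40 µM Antagomir-NC, and all treatments lasted 4 days. The title of the series names the search for target genes of miR-429 as its aim. With 1 array per group there is no replicate spread, so no difference below has a test, and precision is limited by how few arrays there are.

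CDK inhibitors set the pace of the cell cycle. Those of the CIP/KIP family, encoded by CDKN1A (p21) and CDKN1B (p27), bind complexes of cyclins with CDKs, and those of the INK4 family, encoded by CDKN2B (p15) and CDKN2C (p18), bind CDK4 and CDK6 and keep them from cyclin D. p53 is a transcription factor that is held at low levels by the ubiquitin ligase MDM2, itself the product of a p53 target gene. When DNA is damaged, p53 accumulates and induces CDKN1A and a set of repair, antioxidant and feedback genes. miR-429 is a microRNA of the miR-200 family, which represses mRNAs that pair with its seed, bases 2 to 8 of the mature strand.

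The mature strand of miR-429 is printed here because the mimic supplies it and the antagomir is directed against it, beside family members from RefSeq (GRCh38.p14, plus strand), with the seed in capitals. The seed of miR-429 is shared by miR-200b-3p and miR-200c-3p, and that of miR-200a-3p differs from it at 1 base.
hsa-miR-429 at chr1:1169055-1169076: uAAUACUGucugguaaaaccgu
hsa-miR-200b-3p at chr1:1167160-1167181: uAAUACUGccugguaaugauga
hsa-miR-200c-3p at chr12:6963742-6963764: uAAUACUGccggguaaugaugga
hsa-miR-200a-3p at chr1:1167916-1167937: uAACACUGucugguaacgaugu

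Values are MAS5 signals, the array's summary brightness of a probe set on a linear scale, and differences are log2 ratios of signals between 2 arrays. A gene is represented by its brightest probe set. A filter level was set at a signal of 52.9, the median over all probe sets other than controls of their mean log2 signal, and 13180 genes passed it. All 9 measured members passed it by their brightest probe set, and 13 of their 23 probe sets did. Below that level signals are too dim to order, and a fold against such an array is taken against the filter level and given as "at least". Signals were compared between arrays for the same probe set and never between genes. In a bulk sample, fewer cells with a transcript and less of it per cell cannot be told apart.

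The arrays were alike in median signal, between 62.7 and 67.1, and in the share of probe sets at or above the filter level, between 54.2% and 55.9%. EPCAM had a signal of 3838 in miR-429 mimic cells, against 1106 in NC mimic cells, and 913 in Antagomir-429 cells, against 1235 in Antagomir-NC cells, so the 2 control arrays of opposite sort differed little in the sorted marker itself (log2 ratio 0.16, EpCAM-positive over EpCAM-negative). The epithelial keratins KRT8 and KRT18 were bright on all 4 arrays, with signals of at least 28365, whereas the brightest probe sets of the hepatocyte and liver tumour genes ALB, TTR, SERPINA1 and GPC3 were under the filter level on average. The liver genes AFP, APOA1 and APOA2 passed it with low signals, AFP between 91.5 and 119, APOA1 between 66.2 and 91.7 and APOA2 between 55.0 and 106. Of 6 leukocyte markers 4 had a probe set, and 1 or 2 of these were at or above the filter level on each array, with a summed signal of 264 in miR-429 mimic cells, against 208 in NC mimic cells, and 153 in Antagomir-429 cells, against 215 in Antagomir-NC cells. Markers of endothelium and stroma were at or above it for 5 or 6 of 6, with summed signals of 8344 in miR-429 mimic cells, against 7874 in NC mimic cells, and 8532 in Antagomir-429 cells, against 11387 in Antagomir-NC cells, most of it from the collagen COL1A1. The part of these markers in the results below was not tested.

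Across the 4 arrays CDKN1A had the widest range of the 5 brighter members (those past a stricter level of 265.6), and the array with the NC mimic was the highest. CDKN1A had a signal of 4205 in miR-429 mimic cells, against 6917 in NC mimic cells, and of 2782.5 in Antagomir-429 cells, against 4072 in Antagomir-NC cells. Both treated arrays thus lay below their own control, by log2 ratios of -0.72 (1.65-fold lower) with the mimic and -0.55 (1.46-fold lower) with the antagomir. The mimic array was close to the EpCAM-positive control, with a log2 ratio of 0.05 between them. Among the 3295 genes in the brightest of 4 equal bins by signal, 1.34% were lower by at least as much as CDKN1A with the mimic, and 0.46% with the antagomir. Its only single-gene probe set, 202284_s_at, gave each of these values.

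The log2 ratios of the mimic pair were related to gene length, which bears on short genes such as CDKN1A. Among the brighter genes, those in the second of 5 equal groups by span on the genome, where CDKN1A with its 10.9 kb lies, had a median log2 ratio of -0.14 with the mimic. The shortest group had -0.24 and the longest 0.27. With the antagomir the group of CDKN1A had -0.01, the shortest -0.02 and the longest 0.04. Hybridisation controls averaged a log2 signal of 13.05 on the miR-429 mimic array and 13.51 on the NC mimic array, and poly-A spike-ins averaged 11.35 on the miR-429 mimic array and 12.17 on the NC mimic array. On the Antagomir-429 and Antagomir-NC arrays the hybridisation controls averaged 13.30 and 13.29, and the spike-ins 11.82 and 11.74. The actin 3′ to 5′ ratio, a measure of RNA and labelling quality, was 2.63 in miR-429 mimic cells, against 3.41 in NC mimic cells, while it was 3.07 in Antagomir-429 cells, against 3.12 in Antagomir-NC cells. The part of length, labelling and RNA quality in the value of CDKN1A was not tested.

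The promoter of CDKN1A is shown because this gene was lower on both treated arrays by more than most genes of like signal. The window holds 250 bases before to 50 bases after the start given by RefSeq (GRCh38.p14, chr6:36678464-36678763, plus strand), with each GGGCGG in capitals, the GC box that binds SP1-type factors.
CDKN1A promoter: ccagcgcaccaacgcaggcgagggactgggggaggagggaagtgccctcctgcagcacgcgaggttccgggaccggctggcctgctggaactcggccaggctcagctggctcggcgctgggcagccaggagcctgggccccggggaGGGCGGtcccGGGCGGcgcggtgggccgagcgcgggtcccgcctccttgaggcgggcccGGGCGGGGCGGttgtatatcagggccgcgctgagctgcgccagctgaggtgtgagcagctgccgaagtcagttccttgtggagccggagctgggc
The motif GGGCGG was searched on either strand and occurred 4 times, with 2 of the copies overlapping by 1 base. Of 35116 such windows over all genes, 44.9% held at least 1 copy and 9.06% held 4 or more. The best match to the p53 response element in this window had 5 mismatches. The known p53 sites of CDKN1A lie further upstream than the window reaches, so the absence of a closer match says nothing of p53 there.

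**Figure D1:**
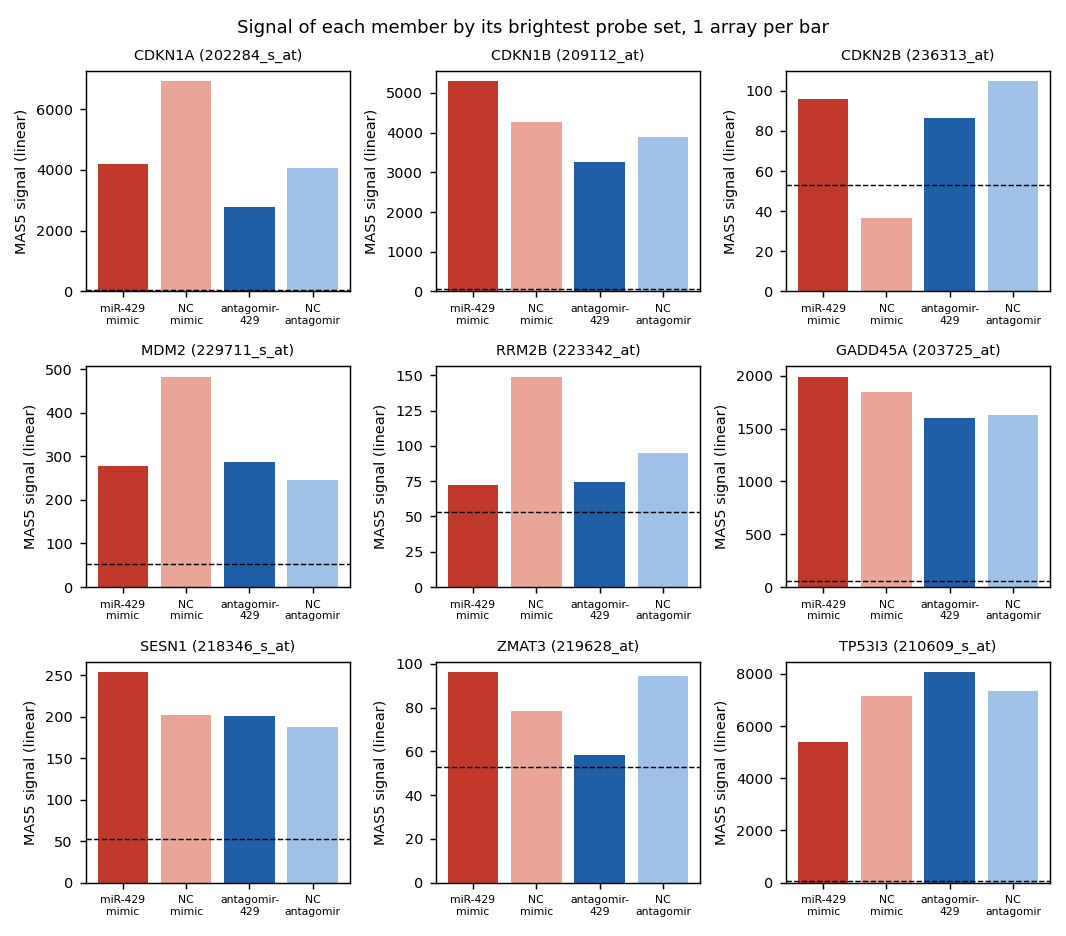
MAS5 signal (linear axis from 0) of the 9 measured members by their brightest probe set, 1 bar per array, red for EpCAM-negative and blue for EpCAM-positive cells, with the dashed line at the filter level of 52.9. CDKN1A, MDM2 and RRM2B were highest with the NC mimic (6917, 483 and 149), and CDKN2B was lowest there (36.6).

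CDKN1B, which restrains CDK2 and is controlled largely through degradation of its protein, had small differences in opposite directions. Its signal was 5293 in miR-429 mimic cells, against 4266 in NC mimic cells, and 3249 in Antagomir-429 cells, against 3880 in Antagomir-NC cells. The log2 ratios were 0.31 (1.24-fold higher) with the mimic and -0.26 (1.19-fold lower) with the antagomir. Of the genes in its signal bin, 16.2% were higher by at least as much with the mimic and 6.65% were lower by at least as much with the antagomir. SKP2 is the ubiquitin ligase subunit that marks p27 protein for degradation. By its brightest probe set it had 4429 in miR-429 mimic cells, against 3103 in NC mimic cells, and 4825 in Antagomir-429 cells, against 3878 in Antagomir-NC cells. By that probe set SKP2 was higher on both treated arrays, with log2 ratios of 0.51 and 0.32. The medians over its 2 probe sets past the filter were 0.42 with the mimic and only 0.09 with the antagomir. SKP2 was picked out once its values were known.

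CDKN2B was dim, and with the mimic its 2 probe sets went opposite ways. By the brighter, 236313_at, the signal was 95.9 in miR-429 mimic cells, against 36.6 in NC mimic cells, which is under the filter level, so the mimic array was at least 1.81-fold higher. It was 86.6 in Antagomir-429 cells, against 105 in Antagomir-NC cells, a log2 ratio of -0.28. The array with the NC mimic therefore stood apart as the lowest, and the other arrays lay within 86.6 to 105. By the dimmer, 207530_s_at, the NC mimic array was instead the highest: 13.5 in miR-429 mimic cells, against 55.5 in NC mimic cells, the only array above the filter level, and 6.70 in Antagomir-429 cells, against 10.4 in Antagomir-NC cells. Taken against the filter level, the mimic array was only at least 1.05-fold lower by this probe set. Against the EpCAM-positive NC antagomir array the mimic value of CDKN2B by its brighter probe set changed sign, to -0.13.

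The p53 targets began with MDM2, whose product ubiquitinates p53 in a feedback loop. By its brightest probe set, 229711_s_at, MDM2 had a signal of 278 in miR-429 mimic cells, against 483 in NC mimic cells, and 286 in Antagomir-429 cells, against 246 in Antagomir-NC cells. The log2 ratios were -0.80 (1.74-fold lower) with the mimic and 0.22 (1.16-fold higher) with the antagomir. In the signal bin of MDM2, 5.28% of genes were lower by at least as much with the mimic and 34.4% higher by at least as much with the antagomir.

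The 10 probe sets of MDM2 differed in direction for the mimic pair. Of the 4 past the filter, 229711_s_at and 225160_x_at (195 in miR-429 mimic cells, against 243 in NC mimic cells) were lower, and 217373_x_at (74.1 in miR-429 mimic cells, against 69.7 in NC mimic cells) and 238733_at (95.2 in miR-429 mimic cells, against 47.7 in NC mimic cells) were higher. The last was at least 1.80-fold higher, since the NC mimic array was under the filter level. Among the 6 dimmer probe sets, 205386_s_at had 85.8 in miR-429 mimic cells, against 6.67 in NC mimic cells, and 78.7 in Antagomir-429 cells, against 77.8 in Antagomir-NC cells. In the same way 211832_s_at had 79.7 in miR-429 mimic cells, against 8.75 in NC mimic cells, and 47.9 in Antagomir-429 cells, against 58.0 in Antagomir-NC cells. Thus 205386_s_at put the NC mimic array lowest, where the brightest probe set put it highest, while for 211832_s_at the NC mimic and Antagomir-429 arrays were both under the filter level and have no order. With the mimic these 2 probe sets were at least 1.62-fold and at least 1.51-fold higher against the filter level. The remaining 4 were under the filter level on all arrays. With the antagomir 3 of the 4 probe sets past the filter were higher, with log2 ratios from 0.22 to 0.55, and 225160_x_at was lower (-0.18).

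**Figure D2:**
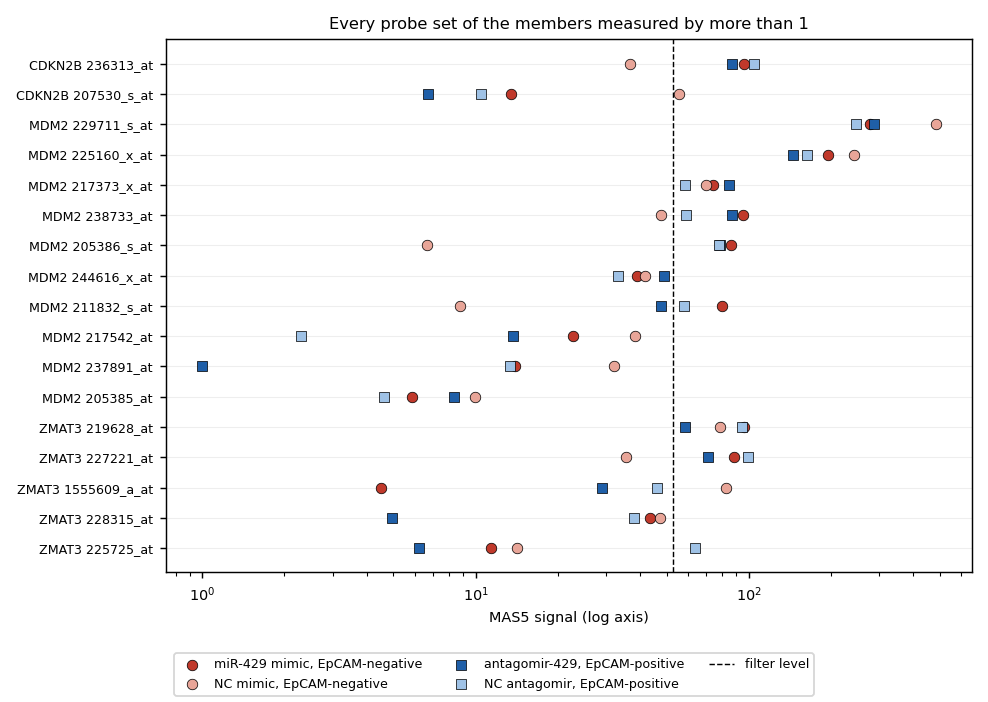
MAS5 signal (log axis) of every probe set of CDKN2B, MDM2 and ZMAT3, with circles for EpCAM-negative and squares for EpCAM-positive cells, dark for miR-429 mimic or antagomir-429 and light for their controls, and the filter level of 52.9 as a dashed line. The NC mimic array is the highest for MDM2 229711_s_at (483) and the lowest for MDM2 205386_s_at (6.67).

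MDM2 transcription starts at an upstream promoter or, under p53, at a second promoter in the first intron. A window at the intronic start is shown because it holds the closest match to the p53 response element among the promoter windows of the members (GRCh38.p14, chr12:68808774-68809073, plus strand), with the match in capitals.
MDM2 promoter: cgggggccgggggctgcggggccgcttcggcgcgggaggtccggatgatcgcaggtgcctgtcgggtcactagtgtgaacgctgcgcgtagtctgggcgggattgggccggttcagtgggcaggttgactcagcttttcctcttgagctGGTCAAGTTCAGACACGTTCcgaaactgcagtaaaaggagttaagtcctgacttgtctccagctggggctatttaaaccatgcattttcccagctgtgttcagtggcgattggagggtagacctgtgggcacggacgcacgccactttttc
The match lies 101 to 82 bases before the start and has 2 mismatches to the 20-base p53 response element, searched without a gap and with the fixed bases of both parts intact. The element is a palindrome and reads alike on both strands. Of all 35116 windows, 0.285% held a match with at most 2 mismatches and 1.12% held one with at most 3. RefSeq windows were found for 8 of the 10 members, 16 in all, of which 4 windows of 3 genes held a match with at most 3 mismatches. Apart from MDM2, where a second window with a start 7 bases away held the same match, these were SESN1 (49 to 30 bases before a start, 3 mismatches) and CDKN1B (231 to 212 bases before the start, 3 mismatches). A match is a description of the letters, and binding was not measured.
SESN1 match on chr6, minus strand: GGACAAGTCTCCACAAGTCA
CDKN1B match on chr12, plus strand: AGGCCAGCCAGAGCAGGTTT

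RRM2B encodes the p53-inducible small subunit of ribonucleotide reductase, which supplies deoxynucleotides for DNA repair. It was the only measured member at or past 2-fold lower by its brightest probe set in any of the comparisons. Its signal was 72.4 in miR-429 mimic cells, against 149 in NC mimic cells, and 74.2 in Antagomir-429 cells, against 94.8 in Antagomir-NC cells. The log2 ratios were -1.04 (2.06-fold lower) with the mimic and -0.35 (1.28-fold lower) with the antagomir. RRM2B was dim, and 11.2% of the genes in the dimmest bin were lower by at least as much with the mimic. With 13.2 signal units added before log2 the mimic value was -0.92, short of 2-fold.

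GADD45A, a stress protein that binds CDK1 and promotes arrest, was nearly level over the arrays. Its signal was 1993 in miR-429 mimic cells, against 1846 in NC mimic cells, and 1604 in Antagomir-429 cells, against 1630 in Antagomir-NC cells. Of the genes in its signal bin, 79.1% differed by at least as much with the mimic and 86.9% with the antagomir. Its log2 ratios were 0.11 with the mimic and -0.02 with the antagomir. Its mimic value was 0.0016 after each array was centred on the median of its probe sets past the filter, controls left out. SESN1, a sestrin that restrains mTORC1 and protects against oxidants, had 253 in miR-429 mimic cells, against 202 in NC mimic cells, and 201 in Antagomir-429 cells, against 188 in Antagomir-NC cells. Its log2 ratios were 0.33 with the mimic and 0.10 with the antagomir.

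ZMAT3, a zinc finger RNA-binding protein induced by p53, had the most negative antagomir value of the members. By its brightest probe set, 219628_at, its signal was 96.1 in miR-429 mimic cells, against 78.6 in NC mimic cells, and 58.4 in Antagomir-429 cells, against 94.2 in Antagomir-NC cells. The log2 ratio with the antagomir was -0.69 (1.61-fold lower). The second probe set past the filter, 227221_at, was lower too, with 70.8 in Antagomir-429 cells, against 99.7 in Antagomir-NC cells. ZMAT3 is dim, and 18.6% of genes in its signal bin were lower by at least as much with the antagomir. With the mimic the brightest probe set gave 0.29, while 227221_at was at least 1.67-fold higher (88.1 in miR-429 mimic cells, against 35.5 in NC mimic cells). The dim 1555609_a_at was at least 1.56-fold lower (4.51 in miR-429 mimic cells, against 82.4 in NC mimic cells).

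TP53I3 encodes a quinone oxidoreductase that p53 induces and that generates reactive oxygen. Its signal was 5377 in miR-429 mimic cells, against 7172 in NC mimic cells, and 8066 in Antagomir-429 cells, against 7358 in Antagomir-NC cells. The miR-429 mimic array was thus the lowest of the 4. The log2 ratios were -0.42 (1.33-fold lower) with the mimic and 0.13 (1.10-fold higher) with the antagomir, and 14.2% of genes in its signal bin were lower by at least as much with the mimic. TP53I3 spans 7.40 kb and lies in the shortest span group, whose median with the mimic was -0.24, as given above. CDKN1B (0.31), GADD45A (0.11) and the dim CDKN2B fall in that group too and were above 0 with the mimic. In span group 4 of 5, with a median of 0.11, MDM2 and RRM2B were below 0 and ZMAT3 was above, by their brightest probe sets. The part of length in these values was not tested.

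Taken over the 9 measured members by their brightest probe sets, the mimic comparison (miR-429 over NC) gave no common direction. In that comparison 9.01% of the 13180 genes past the filter were at or past 2-fold, 5.25% higher and 3.76% lower. Among the members 2 of 9 were by signals as measured, CDKN2B higher and RRM2B lower, both dim. The NC mimic signal of CDKN2B was under the filter level, and with signals under the level raised to it, an alternative chosen after seeing the data, RRM2B alone was past 2-fold, beside 7.09% of all genes (4.2% higher and 2.88% lower). The median log2 ratio of the members was 0.11, with 5 above 0 and 4 below, beside a median of -0.002 over all genes past the filter. Over all these genes 692 were at or past 2-fold higher and 496 lower, 58.2% of them higher. Median centring, as used here, centres each array on the median of its probe sets past the filter, controls left out, which is not the median over genes. With it the split was 549 and 628, 46.6% higher. The median of all genes was then -0.11 and that of the members 0.0016, so both medians moved down by about as much.

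With antagomir-429 over the NC antagomir, 7.25% of the 13180 genes were at or past 2-fold, 3.72% higher and 3.53% lower, and 0 of 9 members were. With signals under the filter level raised to it, 0 of 9 members and 4.63% of all genes (2.41% higher and 2.22% lower) were past it. The median of the members was -0.26, with 3 above 0 and 6 below, beside a median of 0.01 and 49.0% below 0 over all genes. All 3 measured CDK inhibitors were below 0, CDKN1A at -0.55, CDKN1B at -0.26 and CDKN2B at -0.28. The p53 targets were split, with MDM2, SESN1 and TP53I3 above 0 and RRM2B, GADD45A and ZMAT3 below. Among the 5 members past the stricter signal level the median was -0.02. No member changed sign in either comparison under median centring or quantile normalization.

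**Figure D3:**
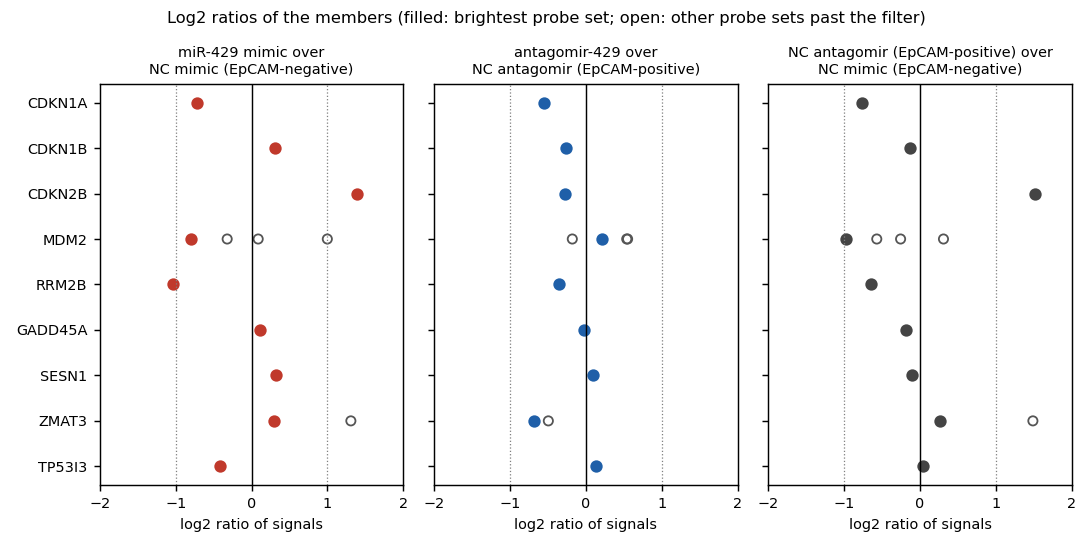
Log2 ratios of signals of the members in the 3 comparisons, filled points for the brightest probe set, open circles for other probe sets past the filter, and dotted lines at 2-fold. RRM2B is at -1.04 and CDKN2B at 1.39 as measured with the mimic (its control is under the filter level, at least 1.81-fold), and no member is past 2-fold with the antagomir.

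The comparison of the 2 control arrays, EpCAM-positive cells with the NC antagomir over EpCAM-negative cells with the NC mimic, asks whether the members differ with the sort. Sort, oligonucleotide and way of delivery cannot be told apart in it, and it shares the NC mimic array with the mimic comparison and the NC antagomir array with the antagomir comparison. In it, 8.32% of genes were at or past 2-fold, 3.62% higher and 4.7% lower, as was 1 of 9 members by signals as measured, CDKN2B by its brighter probe set (105 in Antagomir-NC cells, against 36.6 in NC mimic cells). The NC mimic signal is under the filter level, so CDKN2B is given as at least 1.98-fold higher, and with such signals raised to the level 0 of 9 members were past 2-fold, beside 5.93% of all genes (2.39% higher and 3.54% lower). The members' median was -0.14, with 3 above 0 and 6 below, beside -0.02 over all genes. MDM2 by its brightest probe set (1.96-fold lower), CDKN1A (1.70-fold lower) and RRM2B (1.57-fold lower) had the most negative values. Of genes in the same signal bin, 0.819% were lower by at least as much as CDKN1A, 4.01% by at least as much as MDM2 and 25.1% by at least as much as RRM2B.

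By their brightest probe sets, the NC mimic array was therefore the highest of the 4 for CDKN1A, MDM2 and RRM2B and the lowest for CDKN2B. Over the 13180 genes it was the highest for 29.6% and the lowest for 27.8%. The miR-429 mimic array was the highest for 4 members, CDKN1B, GADD45A, SESN1 and ZMAT3, and antagomir-429 was the lowest for 4, CDKN1A, CDKN1B, GADD45A and ZMAT3. By the second probe set of ZMAT3, 227221_at, the NC antagomir array was instead the highest (99.7) and the NC mimic array the lowest (35.5). Over all genes the miR-429 mimic array was the highest for 28.6% and antagomir-429 the lowest for 22.1%. With the EpCAM-positive NC antagomir array in place of the NC mimic, the mimic values were 0.05 for CDKN1A, 0.18 for MDM2 and -0.39 for RRM2B. With that control 0 of 9 members were past 2-fold, beside 8.59% of all genes.

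The genes whose signals over the 4 arrays most resembled those of CDKN1A, by Euclidean distance between centred log2 profiles among 8129 brighter genes, were WFDC1 (distance 0.09), RAB3A (0.14), CSRNP1 (0.16), ARMC9 (0.19) and RNF214 (0.22). WFDC1 had 4379 in miR-429 mimic cells, against 7192 in NC mimic cells, and 3113 in Antagomir-429 cells, against 4352 in Antagomir-NC cells. These likenesses rest on 4 arrays. As measured CDKN2B had a wider range than CDKN1A (1.52 against 1.31 in log2), but its NC mimic signal was under the filter level, and with that signal raised to the level its range was 0.99, so its nearest profiles are not given.

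Around the members, 5 pathway lists of 56 genes were followed, of which 51 had a probe set and 48 passed the filter. With the mimic 2 of the 48 were at or past 2-fold higher and 0 lower, with the antagomir 1 was higher and 0 lower, and between the controls 1 was higher and 1 lower, which is 4.17%, 2.08% and 4.17% of them. With signals under the filter level raised to it, the mimic count was 1 higher and the counts of the other comparisons were as above. These shares compare with the 9.01%, 7.25% and 8.32% of all genes given above.

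Among p53 regulators, 8 of 10 passed the filter, with medians of 0.29 with the mimic and 0.01 with the antagomir, the antagomir median being below 0 under median centring (-0.02) and quantile normalization (-0.03). HIPK2, a kinase that phosphorylates p53, had 256 in miR-429 mimic cells, against 75.3 in NC mimic cells, and 245 in Antagomir-429 cells, against 236 in Antagomir-NC cells. The mimic array was 3.40-fold higher by this probe set, and the NC antagomir array was 3.14-fold higher than the NC mimic array. The NC mimic array again stood alone, and the median over 7 probe sets of HIPK2 was 0.08 with the mimic. ATM, the kinase that signals double-strand breaks to p53, had 84.1 in miR-429 mimic cells, against 101 in NC mimic cells, and 159 in Antagomir-429 cells, against 60.2 in Antagomir-NC cells, 2.65-fold higher with the antagomir. The median over 3 probe sets of ATM was 0.65 there.

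The other CDK inhibitors had 0 of 3 genes past 2-fold in each of the 3 comparisons. CDKN1C (p57), an imprinted CIP/KIP inhibitor, had 15969 in miR-429 mimic cells, against 19046 in NC mimic cells, and 20745 in Antagomir-429 cells, against 22526 in Antagomir-NC cells. CDKN2A, the locus of p16 and of ARF, which inhibits MDM2, had 10020 in miR-429 mimic cells, against 11633 in NC mimic cells, and 9926 in Antagomir-429 cells, against 10178 in Antagomir-NC cells. CDKN2D (p19) had 333 in miR-429 mimic cells, against 253 in NC mimic cells, and 185 in Antagomir-429 cells, against 296 in Antagomir-NC cells. With the antagomir all 3 were below 0, CDKN1C at -0.12, CDKN2A at -0.04 and CDKN2D at -0.68, and below 0 also under both other scalings, beside the 49.0% of all genes given above.

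Paralogs of the p53-target members had a median of 0.17 with the mimic and 0.09 with the antagomir over 6 of 7 genes, with 0 past 2-fold. MDM4, the partner of MDM2 in p53 control, had 263 in miR-429 mimic cells, against 229 in NC mimic cells, and 308 in Antagomir-429 cells, against 305 in Antagomir-NC cells. GADD45G, a paralog of GADD45A, was under the filter level on average, but its signal was 158 in miR-429 mimic cells, against 17.0 in NC mimic cells, at least 2.99-fold higher, and 38.6 in Antagomir-429 cells, against 23.1 in Antagomir-NC cells.

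The other p53 targets, 18 of 23 of which passed the filter, had a median of -0.15 with the mimic, with 7 above 0 and 11 below and 0 past 2-fold. With the antagomir the median was 0.09, with 10 above 0 and 8 below. The most negative mimic value was -0.78 for AEN, an apoptosis nuclease (689 in miR-429 mimic cells, against 1186 in NC mimic cells), and the most negative antagomir value was -0.97 for PMAIP1, a BH3-only death factor (302 in Antagomir-429 cells, against 590 in Antagomir-NC cells). AEN and PMAIP1 were picked out once their values were known. Between the controls the median was -0.07, with 4 above 0 and 14 below (77.8%, beside 52.2% of all genes). PLK3, a stress kinase, was 2.53-fold lower in the EpCAM-positive control (107) than in the EpCAM-negative one (270). The median over 3 probe sets of PLK3 was -0.93 there, short of 2-fold.

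The kinases and cyclins that the inhibitors bind, with their partners, had medians of 0.21 with the mimic and 0.17 with the antagomir over 13 genes. CCND2, a cyclin D, was the only one at or past 2-fold by signals as measured, with 83.2 in miR-429 mimic cells, against 41.3 in NC mimic cells, which is under the filter level, so it is given as at least 1.57-fold higher. Of 5 proliferation markers 0 were past 2-fold in the mimic and antagomir comparisons, beside 9.01% and 7.25% of all genes. With only 5 genes, a count of 0 says little at such shares. The medians were -0.01 and 0.15. Between the controls 1 of 5 was past 2-fold, beside 8.32% of all genes. It was TOP2A, a topoisomerase of dividing cells, which was 2.48-fold lower (203 in Antagomir-NC cells, against 504 in NC mimic cells). By their brightest probe sets the markers did not share a direction. With the mimic they ran from -0.88 for CDK1 to 0.59 for CCNB1, a mitotic cyclin. With the antagomir they ran from -0.88 for MKI67, a marker of cycling cells, to 0.85 for TOP2A. By the median over the probe sets of each gene, all 5 were above 0 with the antagomir. These medians were 0.91 for TOP2A, 0.23 for CCNB1, 0.15 for MKI67, 0.098 for CDK1 and 0.01 for PCNA. With the mimic such medians still differed in direction, from -0.81 for CDK1 to 0.59 for MKI67. Among them CDK1, the mitotic kinase, had 2863 in miR-429 mimic cells, against 5262 in NC mimic cells, and 3169 in Antagomir-429 cells, against 2745 in Antagomir-NC cells, and PCNA, the replication clamp that also binds p21, had 13183 in miR-429 mimic cells, against 13260 in NC mimic cells, and 15341 in Antagomir-429 cells, against 15189 in Antagomir-NC cells. These markers were picked out once their values were known. The relation of these signals to those of CDKN1A was not tested.

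**Figure D4:**
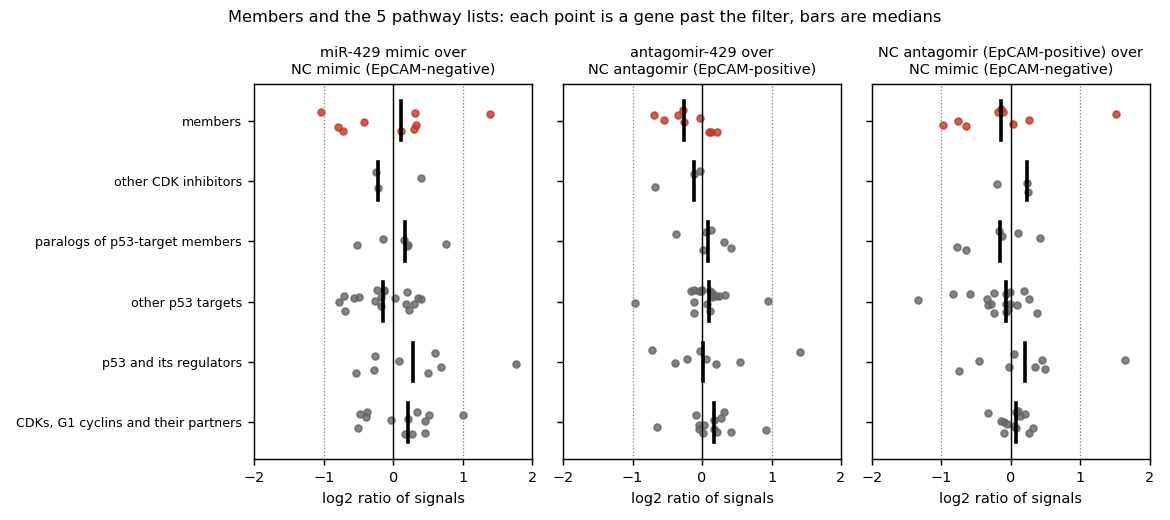
Log2 ratios of signals in the 3 comparisons for the 9 members (red) and the 5 pathway lists (grey), each point a gene past the filter, black bars the medians, dotted lines 2-fold. Most points lie within 2-fold, and the medians of the lists lie between -0.22 and 0.29 with the mimic.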

How the data were processed

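The deposited values are log2 signals, made by the authors with MAS5, per the submitters' processing notes. The MAS5 version and target level were not given in the sources used here. Back on the linear scale, the signals had the same trimmed mean (2% removed from either end) of 500.1 on all 4 arrays, so no further scaling was applied.

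Genes were named from the platform annotation, which can be old: 41091 probe sets named a single gene, 1801 several, and 11777 were not listed. Entrez identifiers of 41037 matched RefSeq (GRCh38.p14). Among the listed pathway genes 5 had no probe set, and CDKN2C had none.

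Log2 ratios were computed with Python 3.11.15, pandas 2.3.3 and numpy 2.4.6, with no p-value, since each group has 1 array. The counting code was checked by putting known folds into a copy of the NC mimic values, for bright genes with 1 probe set. No noise was added, so the check says nothing of dim genes or of how far signals vary. Named genes were all members, EPCAM, MDM4, CDKN1C, CDKN2A, CDKN2D, pathway genes at or past 2-fold on an array above the filter level, and the 5 nearest profiles of CDKN1A and of the widest-ranging member (CDKN2B as measured, left out because 1 of its signals is under the filter level). Members and lists were chosen with earlier results of these data known. Counts past 2-fold use signals as measured. Alternatives changed the scaling, the probe set per gene, the filter, an offset or the control array.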

Additional observations from a re-analysis of the deposited data

How the results depend on the processing

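No paired analysis was possible because each group has 1 array. Of 222 recomputed values of single members, 211 moved by less than 1 robust SD of the genes in the same signal bin, 10 moved by more, and 1 called value changed sign: CDKN2B with the mimic, -0.13 against the EpCAM-positive NC antagomir array. The cause was not tested. Many of the 222 values could not move. A change of filter leaves the ratio of a member as it is. A change of probe set cannot alter a member with 1 probe set past the filter. Raising dim signals alters only members with a signal under the filter level. The count of 211 is therefore no measure of how stable the values are. MDM2 with the mimic was -0.12 as the median over probe sets and 0.999 without _x_at and _s_at probe sets. The members' mimic median was 0.0016 with median centring, 0.29 without _x_at and _s_at probe sets, and -0.42 under the stricter filter, which leaves 5 members. Under that filter 0 members were past 2-fold in either direction with the mimic and 0 were higher between the controls, and the antagomir median was -0.023. Of the 8130 genes past it, 146 were higher and 36 lower with the mimic, and 60 were higher between the controls. With signals under the filter level raised to it, an alternative chosen after seeing the data, 0 members were past 2-fold higher with the mimic, 0 higher between the controls, and 1 pathway gene was higher with the mimic, and of all genes 610 were past 2-fold with the antagomir, against 955 as measured. With the offset 0 members were lower past 2-fold with the mimic, beside 388 of the 13180 genes. With the EpCAM-positive control 0 members were higher and 0 lower with the mimic, beside 706 and 426 of all genes (8.59%). With the EpCAM-negative control the antagomir median was -0.39. There 1 member was past 2-fold higher (CDKN2B, its NC mimic signal under the filter level) and 2 were lower (CDKN1A and RRM2B). Of all genes 593 were higher and 649 lower with that control (9.42%). Of the pathway genes, those past 2-fold higher with the mimic numbered 1 under median centring, quantile normalization, the median over probe sets or the offset, 5 with no filter and 0 under the stricter filter. With the antagomir 0 were higher with the median over probe sets or the stricter filter, and 1 was lower under median centring or no filter. Between the controls 0 were higher and 0 lower with the median over probe sets or the stricter filter, and 2 were higher with no filter. With no filter 24.2% of all genes were past 2-fold with the mimic, and under the stricter filter 2.24%, so dim signals limit what single values show.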
